A study of Mus musculus with 12 samples.

Results

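Mouse embryonic fibroblasts (MEFs) that received a microRNA cluster but no SKO are described here, with the aim of finding genes or gene programs that moved alike with both clusters. They are 6 of the 12 arrays of the series, chosen by the Group2 tag in their labels and not by any measured value. The 4 tested arrays are cluster B at day 4, cluster C at day 4, cluster B at day 8 and cluster C at day 8, and the 2 arrays they are set against are control blank virus at day 4 and at day 8. All 6 cultures carried no SKO, the factor set that the labels tie to the making of induced pluripotent stem (iPS) cells without spelling it out. The other 6 arrays have the same viruses and days with SKO added.

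The cells were MEFs from OG2 cross 129/sv in every group. Per the labels' protocols, virus was given in 2 rounds, day 0 was the first of them, and the cells then grew in medium for mouse embryonic stem cells. Feeder cells were taken out after trypsin, RNA was extracted with Trizol, and 100 ng of total RNA was labelled with biotin for Affymetrix whole-transcript arrays. Each condition has 1 array and no replicate, and nothing says that the cultures came from separate preparations. Every p-value therefore measures only the spread among the arrays of the series. The labels name neither the microRNAs in cluster B and cluster C nor the promoter that drives them, and a free-text description shared by all arrays names another cell and day.

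Levels are deposited log2 values of probe sets, 1 per gene for 19938 genes, and a step of 1 is 2-fold. They serve to compare arrays for 1 gene and not genes with each other. The 6 arrays had medians between 4.98 and 5.07 and lower quartiles between 3.54 and 3.68, and a level under those quartiles is close to the array's background, so that a difference from such a level may be larger than shown. The fibroblast label was borne out by defining markers in all 6 arrays: Col1a1, a chain of type I collagen, lay between 12.87 and 13.01, Pdgfra, a growth factor receptor of fibroblasts, between 9.63 and 9.91, and Vim, the mesenchymal intermediate filament, between 11.67 and 11.95. Defining markers of other cell types were below the array medians in Ptprc of leukocytes, between 3.84 and 4.42, Pecam1 of endothelium, between 3.84 and 4.27, and Epcam of epithelium, between 3.77 and 4.32. Others were above them, among them the macrophage genes Lyz2, between 6.85 and 8.04, and Cd68, between 6.10 and 6.51. So were the keratin gene Krt8, between 5.72 and 6.45, and the neuronal gene Map2, between 6.58 and 6.98. Sox10, between 5.42 and 5.85, Nes, between 5.77 and 6.47, and Actc1, between 5.96 and 6.62, also lay above them. The contractile genes Acta2, up to 12.17, and Tagln, up to 9.75, which activated fibroblasts share with smooth muscle, were high. Pou5f1, which encodes Oct4, lay between 3.35 and 4.56 in the 6 arrays without SKO, against 11.604 to 12.002 in the 6 with it. Nanog, another pluripotency gene, lay between 4.95 and 5.72 in the 6 arrays without SKO, near or above the array medians.

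MicroRNAs are short RNAs that pair with messenger RNAs mainly through a seed near their 5′ end, and pairing lowers the stability and translation of the target. The Mir302b to Mir367 locus is active in embryonic stem cells, and its members, like those of the related Mir106a to Mir363 and Mir17 loci, are known to repress brakes on the G1/S transition and receptors of TGF-beta signalling. Fibroblasts normally make little or no miR-302.

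Both loci have probe sets on the array, and 7 of their mature sequences are shown because the letters their seeds share bear on targets of both loci. The sequences are RefSeq's for GRCm38.p6, written 5′ to 3′, with bases 2 to 8, the seed, in capitals.
mmu-miR-302b-3p (chr3:127545275-127545297, plus strand): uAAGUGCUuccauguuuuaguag
mmu-miR-302c-3p (chr3:127545406-127545427, plus strand): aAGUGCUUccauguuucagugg
mmu-miR-302d-3p (chr3:127545665-127545687, plus strand): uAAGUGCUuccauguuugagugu
mmu-miR-367-3p (chr3:127545779-127545800, plus strand): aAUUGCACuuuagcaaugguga
mmu-miR-363-3p (chrX:52741697-52741718, minus strand): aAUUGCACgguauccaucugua
mmu-miR-20b-5p (chrX:52742159-52742181, minus strand): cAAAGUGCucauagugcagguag
mmu-miR-106a-5p (chrX:52742541-52742563, minus strand): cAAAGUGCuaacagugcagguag
The 2 loci share a whole seed in miR-363-3p and miR-367-3p, which both carry AUUGCAC at bases 2 to 8. The run AAGUGC starts at base 2 in miR-302b-3p and miR-302d-3p, at base 1 in miR-302c-3p and at base 3 in miR-20b-5p and miR-106a-5p, so those seeds overlap by a shift and are not the same. The reported targets of both families were followed as lists.

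At day 4 the cluster C array was highest for the Mir302b to Mir367 locus and the cluster B array for the Mir106a to Mir363 locus, while at day 8 the differences were smaller and not all of that direction. Mir302b was 5.82 with cluster C and 2.30 with cluster B at day 4, against 1.74 in the control. At day 8 it was 2.86 with cluster C and 1.79 with cluster B, against 1.63 in the control. Mir302d was likewise 5.25 with cluster C and 2.05 with cluster B at day 4, against 2.21 in the control, and at day 8 it was 3.03 with cluster C and 1.99 with cluster B, against 2.48 in the control. The cluster C array thus stood above the other arrays of its day for both, and by less at day 8 than at day 4.

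For Mir363 it was the cluster B array that stood out. It was 3.98 with cluster B and 1.91 with cluster C at day 4, against 1.95 in the control, and 3.08 with cluster B and 2.12 with cluster C at day 8, against 2.63 in the control. Mir106a was 2.98 with cluster B and 2.03 with cluster C at day 4, against 1.82 in the control, and 2.28 with cluster B and 1.99 with cluster C at day 8, against 2.27 in the control. At day 8 Mir106a in the cluster B array was therefore level with its control. Mir20b was 3.60 with cluster B and 2.64 with cluster C at day 4, against 2.28 in the control, but 2.35 with cluster B and 2.49 with cluster C at day 8, against 2.75 in the control. Mir19b-2 likewise was 1.87 with cluster B and 1.99 with cluster C at day 8, against 2.29 in the control, so both cluster arrays lay below the control of day 8 for these 2 probe sets. All day 8 levels given above for either locus lie under the arrays' lower quartiles, close to the background.

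Mir302a, Mir302b and Mir302c lay above control in all 4 cluster arrays. For Mir302b cluster B exceeded control by 0.56 (day 4) and 0.16 (day 8), at levels under the lower quartiles, and cluster C did so by 4.08 (day 4) and 1.23 (day 8). The either-cluster difference of Mir302b was 1.51 ± 0.47 (SE), the largest rise of any gene, and missed the threshold in limma (adjusted p = 0.980). It passed without the cluster C array of day 8, at 2.17 with an adjusted p of 0.0274 in limma. Cluster C exceeded cluster B for Mir302b by 2.29 ± 0.54 (log2 difference ± SE over both days), which did not pass limma with Benjamini-Hochberg adjustment over all genes (adjusted p = 0.718). For Mir363 the same difference was -1.51 ± 0.32 with an adjusted p of 0.677 in limma. In a bulk sample, fewer cells that carry the virus and less of the probed RNA per cell cannot be told apart. The amount of mature microRNA was not measured separately. In the cluster C arrays of day 4 and day 8 Mir302b was 5.82 and 2.86 without SKO, against 7.08 and 7.15 with SKO. The either-cluster difference of Mir302b with SKO minus without SKO did not pass (adjusted p = 0.974 in limma).

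**Figure D1:**
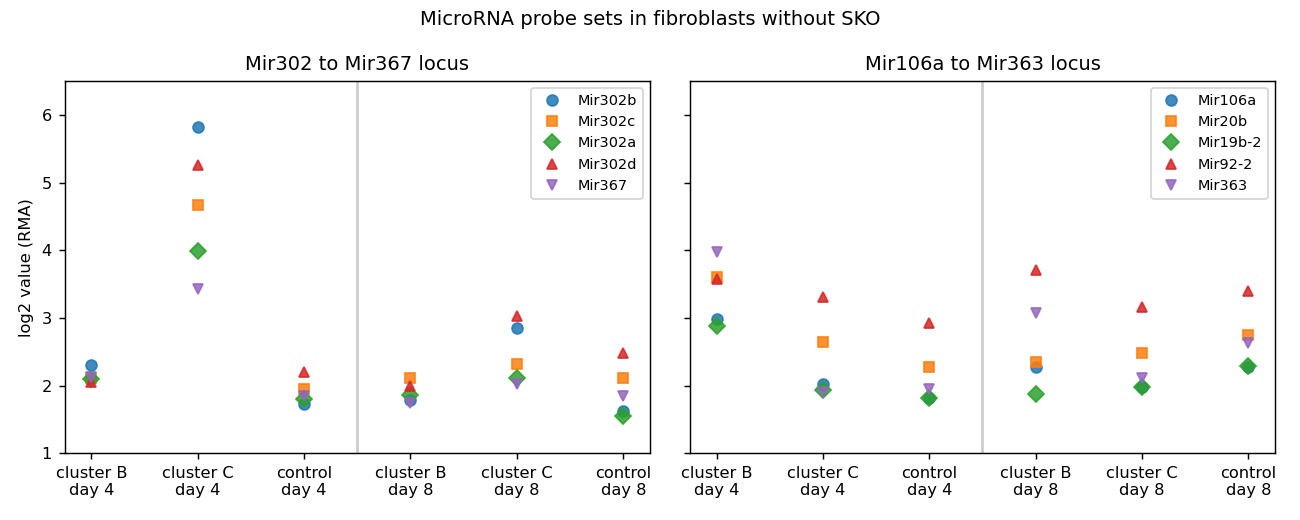
Log2 level of microRNA probe sets of the Mir302b to Mir367 and Mir106a to Mir363 loci in the 6 arrays without SKO, 1 point per array, with the cluster arrays left of the control of their day. Mir302b at 5.82 in the cluster C array of day 4 is the highest point, Mir363 at 3.98 is the highest of cluster B, and at day 8 most probe sets lie near their control.

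Over all genes, an array that received a cluster lay about as far from its control as the clusters lay from each other. The mean absolute log2 difference per gene at day 4 was 0.232 for cluster B against control and 0.188 for cluster C against control, and 0.227 for cluster C against cluster B. At day 8 it was 0.192 for cluster B against control, 0.200 for cluster C against control and 0.188 for cluster C against cluster B. Any pair of arrays of different days differed more, by 0.261 to 0.293, and the pair of controls by 0.293.

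**Figure D2:**
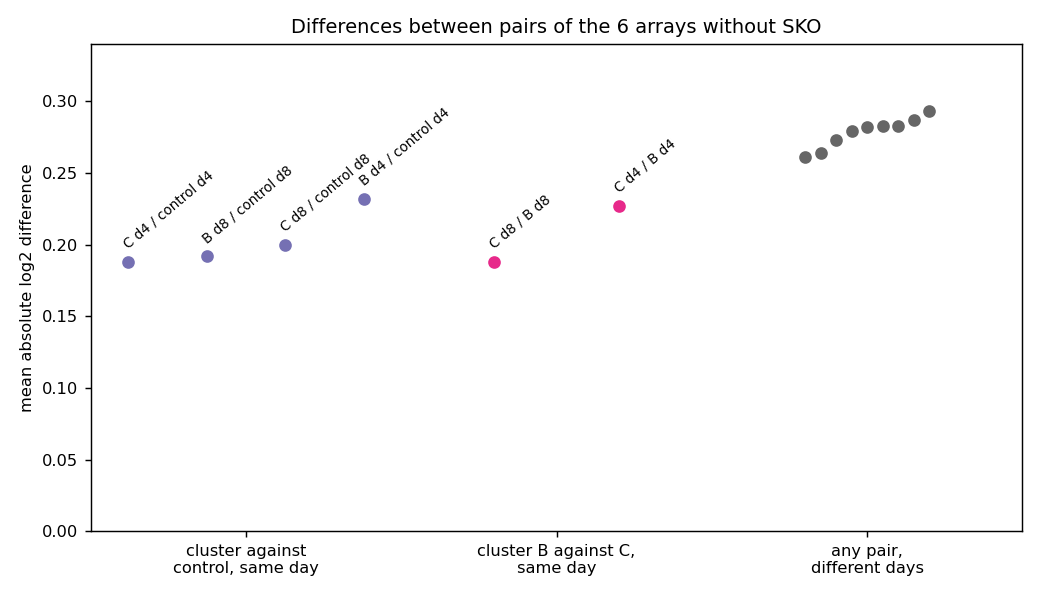
Mean absolute log2 difference over 19938 genes for each pair of the 6 arrays without SKO, 1 point per pair. Pairs of a cluster and its control lie at 0.188 to 0.232, the cluster pairs at 0.188 and 0.227, and pairs of different days at 0.261 to 0.293.

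No gene passed the test of the either-cluster difference, the mean of clusters B and C minus control over both days. An effect of a single cluster can pass this either-cluster test, so it does not test whether both clusters moved alike. It was made in a limma fit over all 12 arrays. The spread in that fit is the amount by which the viruses' differences vary between days, with SKO and without it. The standard errors and intervals given here thus rest in part on the arrays with SKO. Of 19938 genes, 0 passed an adjusted p of 0.05, and the smallest adjusted p was 0.274. At an unadjusted p under 0.05 there were 986 genes, or 4.95% of those tested, a share close to the threshold itself. The median standard error of a gene's difference was 0.131 and its 95% interval reached a median of 0.297 to either side.

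The intervals also bound what could have been missed in the mean of clusters B and C over both days. They do not bound an effect of 1 cluster or of 1 day alone. Tested by day, the median standard error was 0.196 at day 4 and 0.196 at day 8. For 99.0% of genes the 95% interval lay within a 2-fold change in either direction. Of the 7748 genes with a mean level of at least 6 over the 6 arrays, 97.4% had an interval within 1.5-fold. Among those brighter genes the central 95% of differences ran from -0.22 to 0.21, and 5 genes, 0.0645%, reached a size of 0.5, which 193 of all genes, 0.968%, did. RMA, the authors' normalization, pulls arrays to a common distribution, which hides a shift common to most genes.

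Tested by day, the outcome was the same, with spread then taken from the difference between clusters B and C within a day. That spread, too, comes in part from the arrays with SKO. At day 4, 0 genes passed in limma with a smallest adjusted p of 0.397, and 942 genes (4.72%) had an unadjusted p under 0.05. At day 8, 0 genes passed with a smallest adjusted p of 0.101, and 915 genes (4.59%) had an unadjusted p under 0.05.

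The days share no array, which allows their differences to be set side by side. Across genes the either-cluster difference at day 8 and that at day 4 had a Pearson r of -0.06 over 19938 genes and the same sign in 47.2% of them, given as a description because genes are not independent. In the 7748 brighter genes r was -0.09 and 45.5% had the same sign. Cluster B at day 8 with cluster B at day 4 gave r = -0.03, and cluster C at day 8 with cluster C at day 4 gave r = -0.01. The points of an axis share their arrays and background, and all arrays were normalized together.

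**Figure D3:**
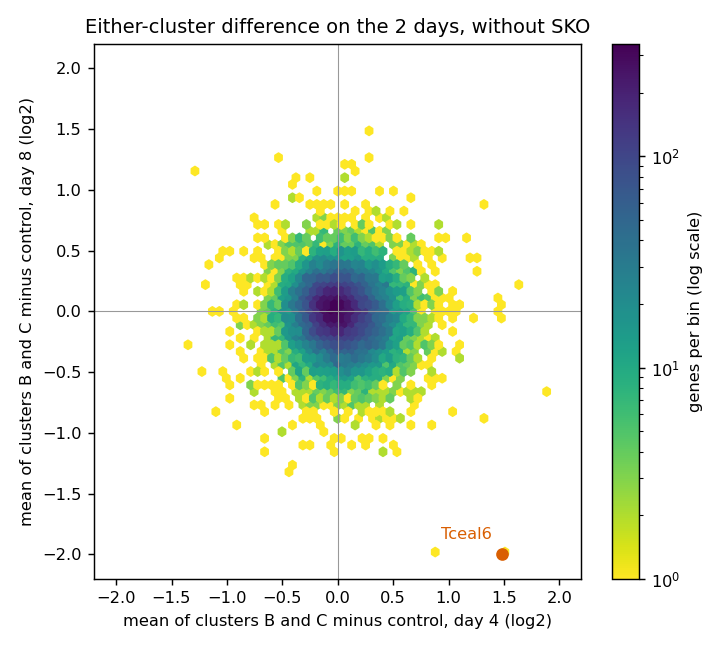
Mean of clusters B and C minus control at day 8 (vertical, log2) against day 4 (horizontal, log2) for 19938 genes, binned in hexagons coloured by number of genes on a log scale. The cloud is round about 0, with r = -0.06, and Tceal6 lies apart at 1.49 on day 4 and -1.99 on day 8.

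Both clusters lay above the control of the same day on both days for 2023 genes, 10.1% of all genes, and below it for 1890 genes, 9.48%. Clusters B and C of a day share 1 control array, so a control that is low or high by itself moves both. Among the brighter genes the shares were 8.38% above and 9.82% below. The genes described next come from these sets, ranked by the smallest of their 4 differences in size, so their direction on 4 of 4 cluster arrays was fixed by the choice and is no support for it. Where all 4 cluster arrays also lay beyond both controls, this is a description only. It is not stated for every gene where it held, Chst15 and Xiap among them. The share of all genes with such a gap was not counted, so the gap does not set any of these genes apart. None of the 24 passed the limma test, with adjusted p-values between 0.787 and 1.

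Among the 12 genes higher with both clusters, differences ran from 0.25 to 0.42. Aven, an inhibitor of caspase activation, was 6.99 with cluster B and 6.75 with cluster C at day 4, against 6.44 in the control, and 6.97 with cluster B and 6.88 with cluster C at day 8, against 6.52 in the control. Its difference of 0.42 ± 0.14 (SE) had a limma adjusted p of 0.980, with a 95% interval from 0.10 to 0.73. All 4 cluster arrays lay above both controls.

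Mtx3, a metaxin of the mitochondrial outer membrane, was 6.16 with cluster B and 6.42 with cluster C at day 4, against 5.87 in the control, and 6.24 with cluster B and 6.33 with cluster C at day 8, against 5.91 in the control. Its groups did not overlap, and the difference was 0.40 ± 0.10 (adjusted p = 0.980 in limma). Chst15, a sulfotransferase of chondroitin sulfate, was 6.35 with cluster B and 6.39 with cluster C at day 4, against 6.07 in the control. At day 8 Chst15 was 6.28 with cluster B and 6.42 with cluster C, against 5.96 in the control.

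Xiap, an inhibitor of caspases, was 6.38 with cluster B and 6.39 with cluster C at day 4, against 6.15 in the control, and 6.20 with cluster B and 6.28 with cluster C at day 8, against 5.83 in the control. Its cluster arrays exceeded the control of the day by 0.23 to 0.45. The remaining genes of this group had differences of 0.39 for Ier3, an immediate early gene, 0.36 for the RNA-binding protein gene Rbm26, 0.35 for the deubiquitinase gene Otud7b, and 0.33 for the cytokine gene Il17b. Ifitm1, an interferon-induced membrane protein gene, had 0.32, Shfl, an antiviral inhibitor of ribosomal frameshifting, 0.30, Tjap1, of tight junctions, 0.29, and Tti1, a co-chaperone of large kinases, 0.25.

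Of the 12 genes lower with both clusters, Nsmce3 and Rnf34 had the largest test statistics. Nsmce3, a subunit of the SMC5/6 complex of DNA repair, was 5.70 with cluster B and 5.72 with cluster C at day 4, against 6.62 in the control, and 6.24 with cluster B and 6.11 with cluster C at day 8, against 6.72 in the control. All 4 cluster arrays lay below both controls. The difference was -0.73 ± 0.13 (adjusted p = 0.787 in limma), and with SKO it was 0.28.

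Rnf34, an E3 ubiquitin ligase gene, was 6.42 with cluster B and 6.07 with cluster C at day 4, against 7.06 in the control, and 6.62 with cluster B and 6.40 with cluster C at day 8, against 7.0 in the control. Here too the groups did not overlap, and the difference was -0.65 ± 0.12 (adjusted p = 0.787 in limma). In the arrays with SKO the difference ran the other way, at 0.27, with all 4 cluster arrays above their control. The difference with SKO minus without SKO did not pass for either gene, with limma adjusted p-values of 0.864 for Nsmce3 and 0.974 for Rnf34.

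Cxcl10, an interferon-inducible chemokine, was 7.51 with cluster B and 6.68 with cluster C at day 4, against 7.76 in the control, and 5.12 with cluster B and 5.09 with cluster C at day 8, against 5.87 in the control. Within each day both clusters were lower, and all 3 arrays of day 8 lay below all 3 of day 4. Its difference was -0.72 ± 0.17 (adjusted p = 0.962 in limma), and with SKO it was -0.40. The other 9 genes had differences between -0.39 and -0.27. They were Fbxo4, an F-box protein gene, Tmem129, a ubiquitin ligase of the endoplasmic reticulum, Myo6, an unconventional myosin, Pigx, of GPI anchor synthesis, Tent4a, a poly(A) polymerase, Nt5c3, a nucleotidase, Diablo, a mitochondrial antagonist of Xiap and its relatives, Tmem185a, and Cpsf3, the nuclease that cuts messenger RNA precursors at their 3′ end.

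**Figure D4:**
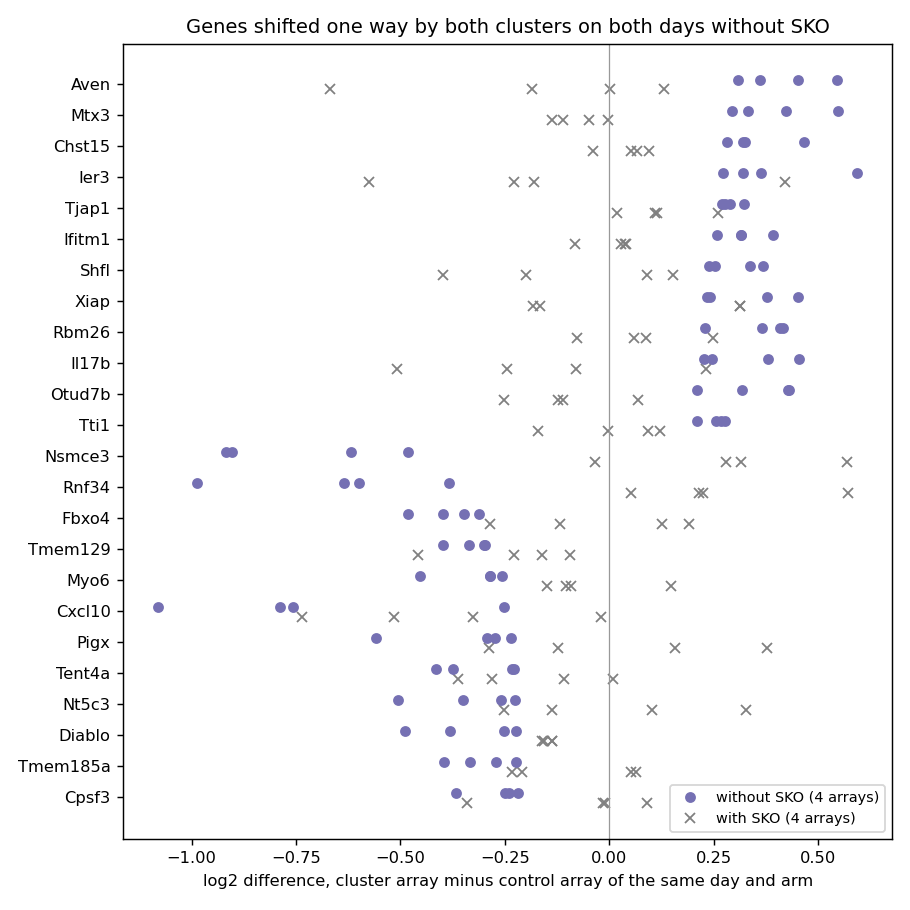
Cluster minus control of the same day (log2) for the 12 higher and 12 lower genes chosen for like sign on all 4 cluster arrays, without SKO and with SKO, 1 point per cluster array. Without SKO the points lie on 1 side of 0 by choice, from 0.25 to 0.42 on average for the higher genes and from -0.73 to -0.27 for the lower ones, while with SKO they fall on both sides for most genes.

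Outside that brightness limit, 2 further genes chosen after their values were seen, Olfr354 and H2bc9, show what the dim end and single genes gave. Olfr354, an olfactory receptor gene, was 2.33 with cluster B and 2.36 with cluster C at day 4, against 3.28 in the control, and 2.0 with cluster B and 2.21 with cluster C at day 8, against 3.05 in the control. All 6 levels lie under the arrays' lower quartiles. The difference of -0.94 ± 0.11 had the smallest adjusted p of the either-cluster test, 0.274 in limma.

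In the arrays with SKO, which share no array with these, Olfr354 was 1.79 with cluster B and 2.07 with cluster C at day 4, against 3.40 in the control, and 2.55 with cluster B and 3.02 with cluster C at day 8, against 4.04 in the control. That difference, -1.36, passed limma with an adjusted p of 0.0124. Averaged over the arms without and with SKO, a setting chosen after the data were seen, Olfr354 fell by 1.15 ± 0.08 on the log2 scale and was the 1 gene that passed (limma adjusted p = 0.00271). It was lower in 8 of 8 cluster arrays, where 221 genes, 1.11%, were.

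H2bc9, a histone H2B gene, was 6.16 with cluster B and 5.93 with cluster C at day 4, against 4.70 in the control, and 5.92 with cluster B and 4.92 with cluster C at day 8, against 4.54 in the control. Its difference of 1.11 ± 0.28 is 1 of 2 that reached a size of 1 (0.01% of genes), the other being Mir302b, and it missed the threshold (adjusted p = 0.980 in limma). Histone genes are near-identical in sequence, so their probe sets may read each other's transcripts. Mir17hg, the host transcript of the Mir17 locus, was 3.89 with cluster B and 2.24 with cluster C at day 4, against 3.72 in the control, and 2.87 with cluster B and 3.78 with cluster C at day 8, against 4.37 in the control. Its difference of -0.85 ± 0.45 was within the scatter of its dim values (adjusted p = 1 in limma).

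A single gene, Tceal6, passed the test of whether the either-cluster difference depended on the day, 0.00502% of the genes tested, while 976 genes (4.90%) had an unadjusted p under 0.05. Tceal6 is an X-linked gene related to a transcription elongation factor. It was 2.09 with cluster B and 2.44 with cluster C at day 8, against 4.26 in the control, and 3.52 with cluster B and 3.43 with cluster C at day 4, against 1.99 in the control. Clusters B and C lay close together on each day, both above the control at day 4 and both below it at day 8. The difference was -1.99 at day 8 and 1.49 at day 4, and day 8 minus day 4 was -3.48 ± 0.31 (adjusted p = 0.0157 in limma). The call was lost in a fit of the 6 arrays alone (adjusted p = 0.0857 in limma) and held in 1 of 4 fits with a cluster array left out, with adjusted p-values between 0.0332 and 0.0747.

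Both control arrays of Tceal6 lie at the ends of its range, and 5 of its 6 levels are under the lower quartiles. In the arrays with SKO it was 2.61 with cluster B and 3.04 with cluster C at day 8, against 2.02 in the control, and 3.37 with cluster B and 3.22 with cluster C at day 4, against 3.02 in the control. No other gene passed this test.

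Reported targets of these families showed no common direction. Of 47 listed targets of the Mir302, Mir17 and Mir106 families 43 were measured, 19 lay above 0 and 24 below, 0 passed the limma test, and 2 had an unadjusted p under 0.05, where all genes gave 4.95%. The median difference was -0.01, beside 0.002 over all genes, of which 10076 of 19938 lay above 0. Medians per array were -0.09 for cluster B and -0.04 for cluster C at day 4, and 0.03 for cluster B and 0.07 for cluster C at day 8, so the sign of the list changed with the day. Both clusters lay below control on both days for 3 of 43 targets, 7.0%, where all genes gave 9.48%. They lay above it for 3, 7.0%, where all genes gave 10.1%.

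Tgfbr2, the type II TGF-beta receptor and a reported target of miR-302, was 8.57 with cluster B and 8.41 with cluster C at day 4, against 8.65 in the control, and 8.32 with cluster B and 8.47 with cluster C at day 8, against 8.29 in the control. The clusters were lower at day 4 and higher at day 8, and the difference of -0.03 ± 0.12 had a 95% interval from -0.29 to 0.23. Rhoc, a small GTPase and another reported target, was 9.14 with cluster B and 9.39 with cluster C at day 4, against 9.42 in the control, and 9.08 with cluster B and 9.20 with cluster C at day 8, against 8.94 in the control. Lats2, a kinase that restrains growth, had a difference of 0.08 ± 0.11. All 3 intervals exclude a fall of 1.5-fold in the mean over both clusters and both days. They do not bound a fall with cluster C alone or at day 4 alone.

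The cell-cycle brakes in the list went both ways. Rbl2, a pocket protein, had a difference of -0.22 ± 0.14, Rb1, the retinoblastoma protein gene, of 0.38 ± 0.17, and neither passed. Slain1, which binds microtubule ends, was the lowest target, at 3.45 with cluster B and 3.54 with cluster C at day 4, against 4.03 in the control, and 3.68 with cluster B and 3.47 with cluster C at day 8, against 3.96 in the control. Its difference was -0.46 ± 0.14 (adjusted p = 0.980 in limma), and the integrin gene Itgb8 had 0.29. In the family that miR-363 and miR-367 share, 15 of 17 listed targets were measured, 8 above 0 and 7 below, with a median of 0.02 and 0 passing. Its members included Bcl2l11, the pro-apoptotic Bim, with a difference of -0.07 ± 0.14, Smad7, an inhibitor of TGF-beta signalling, with 0.12 ± 0.10, Kat2b, an acetyltransferase, with -0.14, and Cdkn1c, a cyclin-dependent kinase inhibitor, with 0.16.

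The 24 gene lists held 698 genes, 613 of them measured, and 0 members passed the limma test. List medians of the either-cluster difference ran from -0.10 to 0.13. On no list did the medians of all 4 cluster arrays lie on the same side of 0, and single array medians ran from -0.41 to 0.20. Proliferation genes show the pattern. Among G1/S and DNA replication genes 13 of 36 lay above 0, with medians of -0.09 for cluster B and -0.09 for cluster C at day 4 and 0.07 for cluster B and 0.05 for cluster C at day 8. Among G2/M and mitosis genes 14 of 36 lay above 0, with medians of -0.13 for cluster B and -0.10 for cluster C at day 4 and 0.09 for cluster B and 0.07 for cluster C at day 8.

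The medians of both clusters had the same sign within a day and opposite signs on the 2 days, and the clusters share the control array of a day. Cdc6, which loads the replicative helicase, was 5.11 with cluster B and 5.40 with cluster C at day 4, against 5.74 in the control, and 5.33 with cluster B and 5.56 with cluster C at day 8, against 5.73 in the control. Its difference was -0.39 ± 0.16 (adjusted p = 0.992 in limma). Mki67, the proliferation marker Ki-67, was 7.39 with cluster B and 7.58 with cluster C at day 4, against 7.46 in the control, and 7.15 with cluster B and 7.22 with cluster C at day 8, against 6.82 in the control. Of 55 listed replication-dependent histone genes 23 were measured. They had a median of -0.06 with 7 above 0, and 3 had an unadjusted p under 0.05, where all genes gave 4.95%: H2ac4 with -0.52, H4c8 with -0.29 and H2bc9 with 1.11. With 1 array left out, H2ac4 ranged between -0.78 and -0.26.

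Genes of fibroblast identity had differences near 0. Of 34 collagen and extracellular matrix genes 22 lay above 0, with a median of 0.02 and a range from -0.13 to 0.19, none with an unadjusted p under 0.05. Col1a1 was 12.94 with cluster B and 12.90 with cluster C at day 4, against 12.88 in the control, and 12.87 with cluster B and 13.01 with cluster C at day 8, against 12.92 in the control. Of 32 mesenchymal transition genes 15 lay above 0, with a median of -0.01. Vim had a difference of -0.21 ± 0.10 and Twist2, a mesenchymal transcription factor, of -0.24 ± 0.11. Neither passed, and both were below control in 4 of 4 cluster arrays, as were 9.48% of all genes. S100a4, a calcium-binding protein of motile cells, had opposite signs on the days, 1.105 at day 8 and -0.27 at day 4 (adjusted p of day 8 minus day 4 = 0.916 in limma). The matrix list had a median of 0.02 without SKO, against -0.20 with SKO, and 4 of its 34 genes had an unadjusted p under 0.05 for the difference between the arms, where all genes gave 4.99%.

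Epithelial genes, which rise early when fibroblasts are reprogrammed, were likewise near 0, with 17 of 38 above 0 and a median of -0.01. Krt8, a keratin of simple epithelia, was 5.72 with cluster B and 5.995 with cluster C at day 4, against 6.28 in the control, and 5.99 with cluster B and 6.25 with cluster C at day 8, against 6.45 in the control. Its difference was -0.37 ± 0.12 without SKO (adjusted p = 0.980 in limma) and 0.56 with SKO. For Krt8 the difference with SKO minus without SKO did not pass (adjusted p = 0.864 in limma). Cdh1, the E-cadherin gene, was 4.06 with cluster B and 4.10 with cluster C at day 4, against 4.18 in the control, and 4.61 with cluster B and 4.47 with cluster C at day 8, against 4.36 in the control. Epcam had a difference of 0.31 ± 0.16, with the cluster C array of day 8 below its control.

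The pluripotency list had 20 of 30 measured genes above 0 and a median of 0.05. Its array medians were 0.20 for cluster B and 0.03 for cluster C at day 4 and -0.02 for cluster B and -0.06 for cluster C at day 8. Both clusters exceeded the control on both days for 7 of the 30 genes, where all genes gave 10.1%. They lay below it for 2, where all genes gave 9.48%. Levels were low, with a list median of 4.41. Fgf4, a growth factor of embryonic stem cells, was 5.58 with cluster B and 5.32 with cluster C at day 4, against 5.29 in the control, and 5.94 with cluster B and 5.58 with cluster C at day 8, against 5.35 in the control. Its difference was 0.28 ± 0.11 (adjusted p = 0.980 in limma). L1td1, an RNA-binding protein gene of pluripotent cells, had 0.31 ± 0.12, and Fbxo15, an Oct4 target, had -0.38 ± 0.17. With 1 array left out L1td1 ranged between 0.10 and 0.53 and Fbxo15 between -0.64 and -0.13. Pou5f1 itself was 4.56 with cluster B and 3.62 with cluster C at day 4, against 3.82 in the control, and 4.17 with cluster B and 3.35 with cluster C at day 8, against 3.99 in the control, so the clusters lay on opposite sides of it.

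Interferon response genes had the lowest list median, -0.10, with 8 of 38 above 0 and 30 below. Of the array medians, that of cluster B at day 8 was furthest from 0, at -0.41. The others were -0.04 for cluster C at day 8, 0.04 for cluster B at day 4 and -0.08 for cluster C at day 4. Without the cluster B array of day 8 the list median was 0.014, and without the control of day 8 it was 0.015. Both clusters lay below control on both days for 4 of the 38, where all genes gave 9.48%. They lay above it for 1, where all genes gave 10.1%. Mx1, an antiviral GTPase, was 4.14 with cluster B and 3.52 with cluster C at day 4, against 4.47 in the control, and 3.02 with cluster B and 3.22 with cluster C at day 8, against 3.72 in the control. Its difference was -0.62 ± 0.22 (adjusted p = 0.980 in limma). Zbp1, a sensor of nucleic acids, had 0.19 ± 0.20. Among 27 fibroblast chemokines and cytokines 9 lay above 0, and Tnfaip3, a brake on NF-kappaB, was lowest at -0.43 ± 0.12.

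**Figure D5:**
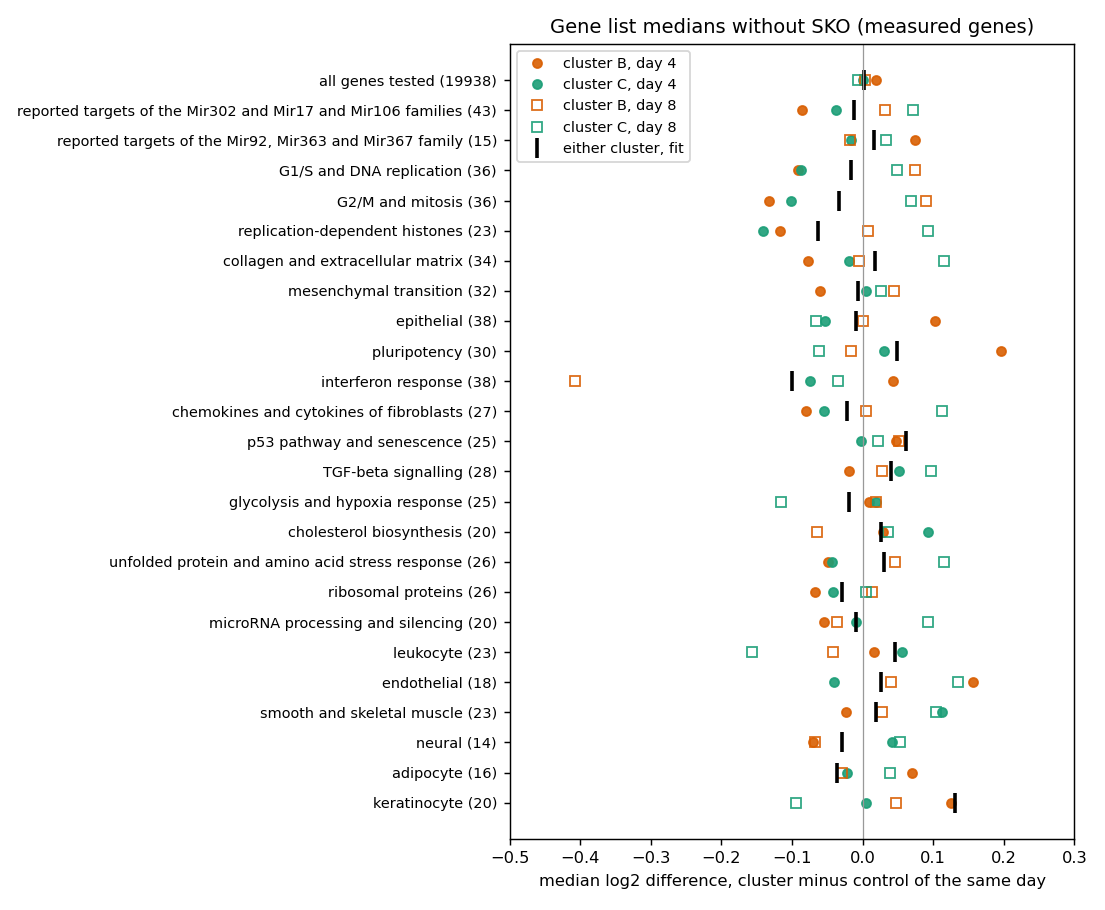
Median log2 difference, cluster minus control of the same day, over the measured genes of each list, 1 point per cluster array without SKO, with the median of the either-cluster difference. Medians of the either-cluster difference lie between -0.10 and 0.13, and the interferon list's -0.41 for cluster B at day 8 is the lowest point.

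Markers of other cell types were read for a change in the make-up of the cultures. The leukocyte list had 13 of 23 above 0, a median of 0.05, and 5 genes at an unadjusted p under 0.05, the most of any list, where all genes gave 4.95%. Of these C1qc, a complement chain of macrophages, had -0.58 ± 0.25, Aif1, a macrophage calcium-binding protein, -0.55 ± 0.14, Cd52, a leukocyte surface protein, -0.38 ± 0.16, and Fcgr3, an Fc receptor, -0.33 ± 0.13, while Cx3cr1, a chemokine receptor, had 0.28 ± 0.12. The clusters disagreed on Cx3cr1, with cluster B 0.60 and 0.77 above control and cluster C 0.16 and 0.09 below it. None passed limma, with adjusted p-values from 0.980 to 0.999. Among the defining markers of macrophages and leukocytes, Csf1r had 0.185, Lyz2 0.18, Tyrobp 0.121, Ptprc 0.114, Cd68 0.084 and Adgre1 -0.016. Mrc1 was the highest of the list, at 0.40. Aif1 was 3.12 with cluster B and 3.51 with cluster C at day 4, against 3.84 in the control, and 3.20 with cluster B and 3.23 with cluster C at day 8, against 3.79 in the control. All 4 cluster arrays lay below the control of their day, as they did for 9.48% of all genes, at levels near the lower quartile. The part of macrophages in these values was not tested.

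Endothelial, muscle, neural and adipocyte lists had medians from -0.04 to 0.03, and the dim keratinocyte list, with a median level of 3.85, had 0.13. Signalling and metabolism lists stayed as close to 0, with medians of 0.06 for the p53 pathway and senescence, 0.04 for TGF-beta signalling, 0.03 for cholesterol biosynthesis, 0.03 for the unfolded protein response, -0.02 for glycolysis and hypoxia and -0.03 for ribosomal proteins. Genes of microRNA processing and silencing had 10 of 20 above 0 and a median of -0.01. Ago2, the Argonaute that cuts targets, had a difference of 0.14 ± 0.11.

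The clusters were next compared with each other without SKO. In limma 0 genes passed for cluster C against cluster B, with a smallest adjusted p of 0.391, and 1260 genes, 6.32%, had an unadjusted p under 0.05. Probe sets of both microRNA loci were among the latter, with unadjusted limma p-values of 0.00214 for Mir302b, 0.00149 for Mir302d and 0.00105 for Mir363. The labels do not say which microRNAs each cluster holds. This test takes variation between days as spread, and with cluster C Mir302b was 2.86 at day 8, against 5.82 at day 4.

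The either-cluster difference was also set beside that with SKO. Across 19938 genes the difference without SKO and that with SKO had r = -0.004 and the same sign in 48.8%, and these share no array. The difference with SKO minus without SKO passed for 0 genes in limma, with a smallest adjusted p of 0.864 and 994 genes (4.99%) at an unadjusted p under 0.05. All 8 cluster arrays of both arms lay above their control for 184 genes, 0.923%, and below it for 221 genes, 1.11%.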

How the data were processed

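The authors deposited log2 values for 28853 probe sets and 12 arrays. The submitters' processing notes name RMA and Partek without versions or roles. The genome build is not given in the sources used here. Probe sets with 1 gene in the platform annotation (21789) were kept, 1621 with several and 5443 with none were left out, and for the 999 genes with several probe sets the brightest was used. RefSeq identifiers matched 21698 probe sets and changed 0 symbols.

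Differences were tested with limma 3.58.1 (R 4.3.3) over all 12 arrays. Both fits had 8 coefficients and 4 residual degrees of freedom, from differences between days or, for single days, between clusters B and C, and p-values were adjusted with Benjamini-Hochberg over 19938 genes in each of 6 comparisons. The fits were tested on simulated data. Named genes are the 12 highest and 12 lowest with like sign on 4 arrays and a mean of at least 6, ranked by their smallest difference, any gene past the threshold, up to 2 extreme members of each list, both microRNA loci and label checks. Other list members at an unadjusted p under 0.05, markers and known targets were named after their values were seen. The members and lists were chosen with earlier results of these data known. Lists have no test. Alternatives covered the arrays fitted, empirical Bayes, normalization, centring, dim genes, probe sets, minimum change and single arrays left out. Python 3.11.15 with pandas 2.3.3 and matplotlib 3.10.9 made tables and figures.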

Additional observations from a re-analysis of the deposited data

Results flagged for a closer look

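The either-cluster difference of Tceal6 without SKO passed the test of a difference between the days over all 12 arrays, though not under every setting. At day 8 it amounted to -1.99 and at day 4 to 1.49, and day 8 minus day 4 was -3.48 ± 0.31 (SE), with a limma adjusted p of 0.0157. A fit of the 6 arrays alone gave an adjusted p of 0.0857 in limma, and 1 of 4 fits with a cluster array left out passed, with adjusted p-values between 0.0332 and 0.0747. Both cluster arrays of a day moved the same way, and they share that day's control array, which was 4.26 at day 8 and 1.99 at day 4. Whether single control arrays account for it was not tested.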

How the results depend on the processing

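With 1 array per condition, the number of arrays limits precision, and effects present on 1 day count as spread in the either-cluster test. No paired analysis was possible because the groups share only 1 replicate number, and day, by which cluster and control arrays are matched, is already a term of both fits. The either-cluster test gave 0 genes under every planned setting except without the cluster C day 8 array, where Mir302b differed by 2.17. Averaged over both arms, added after the data were seen, it gave 1, Olfr354. The day 4 test and the test with SKO minus without SKO gave 0 under all settings run. The day 8 test gave 1 with a mean-variance trend and robust empirical Bayes (Tceal6, limma adjusted p = 0.0176). Day 8 minus day 4 gave 2 with that setting (Tceal6 and Dnaaf6), 0 in a fit of the 6 arrays alone, 0 among genes with a mean of at least 5, where Tceal6 was not tested, and 0 to 1 with 1 array left out (1 without the cluster C day 8 array, 0 without any other cluster array). Cluster C against cluster B gave 0 to 2 with 1 array left out, the 2 being Mir302b and Mir302d without the cluster C day 8 array. Causes were not tested. Tests by day could not be fitted without the control array of that day, and the other of the 2 fits gave no values for tests by day or between clusters. Of 72 genes followed, 65 kept their sign everywhere, and 29 moved by over 1.5 times with 1 array left out. With 1 array left out, 7 reversed, with differences from -0.16 to 0.10 for Tgfbr2, -0.47 to 0.034 for Rbl2, -0.011 to 0.38 for Zbp1, -0.16 to 0.20 for Rhoc, -0.33 to 0.19 for Bcl2l11, -0.035 to 0.35 for Chaf1a and -0.01 to 0.41 for Kif4. The lowest adjusted p of the 72 genes in the either-cluster test under any planned setting was 0.198 in limma. The 72 do not hold every gene named here. Tceal6 and the probe sets of both microRNA loci, Mir302b among them, are not part of them. Most list medians changed sign under at least 1 setting, while those of the p53 and TGF-beta lists stayed above 0.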
